A study of Mus musculus with 4 samples.

Results

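The genes described here belong to the type 1 program of CD4 T cells: Ifng, which encodes the cytokine interferon-gamma, Tbx21, which encodes the transcription factor T-bet, Stat4, the signal transducer of the interleukin-12 (IL-12) receptor, Il12rb1 and Il12rb2, its receptor chains, and Ifngr1 and Ifngr2, the chains of the interferon-gamma receptor. They were chosen by gene symbol, and all 7 were found among the 32285 genes of the deposited count tables. Splenic T cells of C57BL6/J mice had been sorted as CD3+CD4+, cultured for 6 h with beads carrying antibodies to CD3 and CD28, and profiled as single cells with a 10x Genomics 3′ kit (v3.1). Each of 4 groups gave 1 library: females and males labelled Irf5-/-, which by label lack the transcription factor IRF5, and females and males labelled WT. All 4 cultures were stimulated, so induction can be read only between cells of the same culture. Neither the number of mice behind a library nor their age is given in the sources used here. No group has a replicate library. The main tests take label and sex differences as additive. Their p-values rest on departures from that across these 4 libraries, with variance information shared across genes. Spread between replicates of a group is not measured.

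In naive CD4 T cells, signals from the antigen receptor and from interferon-gamma switch on Tbx21, and T-bet in turn opens the Ifng locus and sustains Il12rb2. IL-12 binds a receptor made of the Il12rb1 and Il12rb2 products and activates STAT4, which raises Ifng further. Interferon-gamma is sensed by a receptor whose ligand-binding chain is encoded by Ifngr1 and whose signalling chain is encoded by Ifngr2. Innate-like T cells and memory cells can make interferon-gamma within hours, whereas naive cells usually need days of culture.

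The promoters of Tbx21, Il12rb2 and Ifng are shown because the first pair was seen in activated cells that held almost no Ifng. Each sequence runs 5′ to 3′ on the strand of the gene from 250 bases before the start of transcription to 50 bases past it (RefSeq, GRCm38.p6). Capitals mark matches to the STAT motif TTCNNNGAA, searched on both strands.
Tbx21, chr11:97115282-97115581, minus strand: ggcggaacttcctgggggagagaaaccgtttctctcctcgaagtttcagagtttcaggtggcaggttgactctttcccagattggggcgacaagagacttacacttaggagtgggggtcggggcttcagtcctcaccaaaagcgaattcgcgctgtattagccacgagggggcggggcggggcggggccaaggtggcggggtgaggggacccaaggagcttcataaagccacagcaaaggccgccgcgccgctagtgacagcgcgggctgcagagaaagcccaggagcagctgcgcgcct
Il12rb2, chr6:67376139-67376438, minus strand: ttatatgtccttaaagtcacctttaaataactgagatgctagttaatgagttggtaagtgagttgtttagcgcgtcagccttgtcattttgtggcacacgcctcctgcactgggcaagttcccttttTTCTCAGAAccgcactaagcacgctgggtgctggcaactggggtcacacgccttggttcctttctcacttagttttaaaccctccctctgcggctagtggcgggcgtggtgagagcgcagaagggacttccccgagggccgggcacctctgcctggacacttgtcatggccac
Ifng, chr10:118440796-118441095, plus strand: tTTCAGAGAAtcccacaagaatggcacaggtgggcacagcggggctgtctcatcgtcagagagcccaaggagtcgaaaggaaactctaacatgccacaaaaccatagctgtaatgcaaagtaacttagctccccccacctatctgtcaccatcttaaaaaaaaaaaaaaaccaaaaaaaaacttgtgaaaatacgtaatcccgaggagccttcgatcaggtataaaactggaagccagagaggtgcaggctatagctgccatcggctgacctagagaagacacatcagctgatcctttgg
The STAT letters occur in the Ifng window, starting at position -249, and in the Il12rb2 window, starting at -123, and not in the Tbx21 window. They occur in 8.30% of 32851 promoters of that length. The T-box motif GGTGTGA, present in 3.98% of the promoters, and the AP-1 motif TGANTCA, present in 7.81%, were not found in these 3 windows nor in those of Stat4, Ifngr1 and Ifngr2. The core of the NFAT motif, GGAAA, was found in the windows of Tbx21 (position -178), Ifng (position -172), Ifngr2 and Stat4, and occurs in 61.3% of all promoters. No window of Il12rb1 was in the table. The genes lie on chromosome 10 (Ifng, chr10:118441046-118445892, and Ifngr1, chr10:19591949-19610229), chromosome 11 (Tbx21, chr11:97098071-97115331), chromosome 1 (Stat4, chr1:51987148-52107189), chromosome 8 (Il12rb1, chr8:70808449-70821424), chromosome 6 (Il12rb2, chr6:67291318-67376188) and chromosome 16 (Ifngr2, chr16:91547072-91565623) of GRCm38, by GENCODE M21.

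The 4 libraries held 28841161 to 55850754 UMIs (unique molecular identifiers, each standing for 1 captured RNA molecule). Barcodes with at least 2000 UMIs, at least 500 genes and at most 10% mitochondrial UMIs were taken as cells: 6178 from females labelled knockout, 1814 from females labelled wild type, 6543 from males labelled knockout and 4565 from males labelled wild type. Values of the libraries are given in that order below. Of these 19100 cells, 18966 lay outside a cluster led by the B-cell gene Igkc and are called CD4 T-like. Cd3e was detected in 59.0% to 73.5% of them per library and Cd4 in 20.6% to 36.1%, while Cd8a was detected in at most 0.167%. Median depth differed between libraries (5104.5, 8416, 6741 and 9661 UMIs per cell), and the female wild-type-labelled library had 36.2% of its UMIs in droplets under 200 UMIs against 8.62% to 14.7% in the others. Pairs of libraries shared 2 to 14 cell barcodes. Irf5 went against the labels: it stood at 8.47 and 8.94 UMIs per 1000000 UMIs (CPM) in the female and male libraries labelled knockout and at 0.960 and 0.958 CPM in those labelled wild type (log2 difference 3.11, SE 0.17, adjusted p = 8.58e-06, edgeR), so every direction by genotype below is by label. Xist and Ddx3y matched the sex labels in every library.

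Clusters were built without the 7 genes and are called by their leading gene. The resting naive class held the Rflnb-led cluster (3902 cells) and the Trat1-led cluster (442 cells), the early activated class the Il2-led (2394 cells) and Egr3-led (1751 cells) clusters, and the other named classes a Foxp3-led regulatory cluster (792 cells), a Gpm6b-led memory or effector cluster (683 cells) and an Il4-led innate-like cluster (328 cells). The Ccr4-led (1801 cells), Phlda3-led, Dctpp1-led and Spry1-led clusters matched no marker list, nor did 2 small ones led by Sgms1 (255 cells, 91.8% of them with doublet scores among the highest) and Cdkn1a (66 cells). Cells named NK or gamma-delta-like at a finer clustering numbered 129 and lay inside the memory and innate-like clusters. Differences between clusters are descriptions, since the clusters come from the same cells.

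Ifng was held by few cells. In CD4 T-like cells it had 164, 138, 469 and 161 UMIs, which lay in 52, 23, 69 and 33 cells, or 0.849%, 1.28%, 1.06% and 0.727% of the cells. A single cell carried 231 of the 469 UMIs of the male knockout-labelled library, and the 5 cells with the most UMIs carried 54.9%, 84.1%, 72.9% and 65.2% of their library's Ifng. The innate-like cluster made up 1.72% of all cells, the Igkc-led cluster included, and held 40.6% of their Ifng UMIs, at 68.8, 500, 152 and 289 CPM. Every library was high there. In the female wild-type-labelled library, with 25 such cells, 1 cell held 68 of the 91 UMIs, and the finer clustering placed that cell with the NK or gamma-delta-like cells. In the memory or effector cluster Ifng stood at 75.9, 54.9, 47.7 and 10.4 CPM, with the male wild-type-labelled library lowest. There 6 of 683 cells held 160 of the 225 Ifng UMIs, and the finer clustering placed these 6 in a Gpm6b-led cluster that stayed unnamed and not in its memory or effector cluster. At least 1 UMI was seen in 70 of 328 innate-like cells (21.3%, exact 95% binomial interval 17.0% to 26.2%) and in 53 of 683 memory or effector cells (7.76%, 5.87% to 10.0%). These intervals cover counting error only. The Igkc-led cluster, left out of the CD4 T-like cells, held 66 Ifng UMIs in 6 of 134 cells (4.48%). Of these 6 cells 5 came from the male knockout-labelled library. The 2 cells of that cluster with the most Ifng UMIs, 39 and 16, had 11 and 18 Cd3e UMIs and 1 and 0 Igkc UMIs.

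The other clusters of CD4 T-like cells held 0 to 11 Ifng UMIs each, apart from the Il2-led cluster. Of the 3902 cells of the Rflnb-led cluster 10 had an Ifng UMI (0.256%), none had more than 1, and the 442 cells of the Trat1-led cluster had none, which allows up to 1.01 CPM. The Egr3-led cluster, the most activated by score, held 3 UMIs in 1751 cells, at 0, 0.725, 0.260 and 0.283 CPM. The Ccr4-led cluster held 4 UMIs in 1801 cells. In the Il2-led cluster 253 UMIs were counted, of which the single cell of the male knockout-labelled library held 231. That cell had 324 UMIs of Il2, the growth factor of activated T cells, and none of Tbx21 or Il12rb2. Ifng made up 17.2, 16.4, 19.0 and 11.96 CPM of the free RNA in droplets under 200 UMIs. The part of free RNA in cells with a single UMI was not tested. At least 2 Ifng UMIs were seen in 0 of 4344 resting naive cells, in 4 of 4145 early activated cells and in 43 of 328 innate-like cells.

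**Figure D1:**
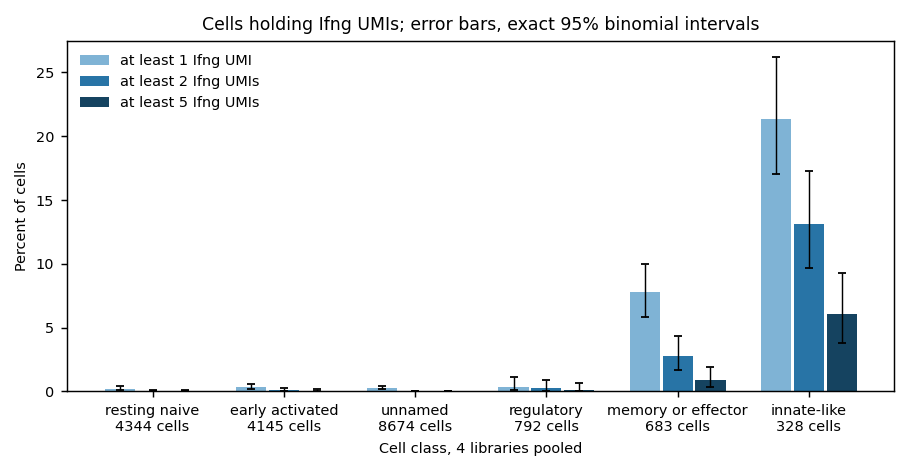
Percent of cells (y axis) with at least 1, 2 or 5 Ifng UMIs in each class of CD4 T-like cells (x axis), 4 libraries pooled. Bars are shares and error bars exact 95% binomial intervals. The Igkc-led cluster is not shown. The innate-like class stands at 21.3% and the memory or effector class at 7.76% for 1 UMI, and the resting naive and early activated classes at 0.2302% and 0.362%.

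The cells with at least 2 Ifng UMIs (20, 9, 27 and 13 per library) were compared with the other CD4 T-like cells of their library. The 10 genes with the highest ratio were Xcl1, a chemokine (median ratio over 4 libraries 60.1, range 30.8 to 81.1), Il4, the type 2 cytokine (53.3, range 16.9 to 94.7), Tnfsf14, Cxcr6, Dgat1, Zbtb16, Ell2, Trf, Ctla2a and Rora. Zbtb16, the factor PLZF that marks innate-like T cells, had a median ratio of 16.1 and a UMI in 22.2% to 53.8% of these cells. Of these 69 cells 62.3% lay in the innate-like cluster, which Il4, Xcl1 and Cxcr6 lead, so the list is a description. Among the members, Il12rb2 averaged 92.1 ± 19.99 CPM (SD, n = 4 libraries) in them against 22.0 ± 8.49 CPM in the other cells, and Il12rb1 15.9 ± 8.07 against 2.12 ± 0.572 CPM. Tbx21 averaged 21.0 ± 12.5 CPM in them against 28.0 ± 7.26 CPM in the others, ranges that overlapped, and 8 of the 69 cells (11.6%) had a Tbx21 UMI, against 13.5% of the other cells. Of the 177 CD4 T-like cells with any Ifng UMI, 24 had Tbx21, 46 had Il12rb2 and 110 had neither; over all CD4 T-like cells 13.5% had Tbx21 and 9.76% Il12rb2.

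Tbx21 was low in the least activated cells and high in the most activated. In the Rflnb-led cluster it stood at 2.31, 0, 1.82 and 1.66 CPM; the 0 of the female wild-type-labelled library, 354 cells, allows up to 1.54 CPM. In the Egr3-led cluster, whose leading gene is an immediate target of antigen receptor signals, it stood at 97.9, 113.8, 101.8 and 76.3 CPM. Every library was far higher there than in its resting cells. The Trat1-led cluster, which has Ccr7 and Klf2 but also Gbp2 and Gbp5 among its leading genes, stood between them at 32.9, 34.6, 38.5 and 32.4 CPM. In order of the mean over libraries the highest clusters were Egr3-led (97.5 ± 15.6 CPM, SD, n = 4), Ccr4-led (64.0 ± 13.9), Foxp3-led (50.8 ± 10.8), Il2-led (36.1 ± 9.52), Trat1-led (34.6 ± 2.76) and Il4-led (26.9 ± 12.5), among the 11 clusters of over 300 cells. The ranges of the libraries did not overlap between the first and the second of these and did overlap between each later pair of neighbours. The memory or effector cluster stood at 14.7 ± 4.44 CPM, in the range of the Phlda3-led cluster (12.9 ± 6.71 CPM).

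With every cell thinned to 2000 UMIs, the share of cells with a Tbx21 UMI was 15.9% in the Egr3-led, 10.5% in the Ccr4-led, 7.47% in the Trat1-led and 0.359% in the Rflnb-led cluster; unthinned it was 37.3%, 32.1%, 17.0% and 0.769%. Early activated over resting naive cells, the thinned log2 ratio was 3.17, 3.41, 3.42 and 4.13 (mean 3.53 ± 0.42, n = 4), an 11.6-fold difference with the same direction in 4 of 4 libraries. The size depends on which cells are called resting and activated. Egr3-led over Rflnb-led cells, without the Trat1-led and Il2-led cells, the log2 ratio was 5.11, 5.68 and 6.36 in the 3 libraries with a ratio.

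Il12rb2, the signalling chain of the IL-12 receptor, followed another order. It stood at 138.8, 126.4, 147.1 and 82.6 CPM in the innate-like cluster, above the 10 other clusters of over 300 cells in 4 of 4 libraries. The Ccr4-led cluster followed at 90.7, 90.6, 47.8 and 42.0 CPM and the Trat1-led cluster at 76.4, 42.0, 47.5 and 40.5 CPM. These overlapped with each other. In the Egr3-led cluster, where Tbx21 was highest, Il12rb2 stood at 27.6, 23.2, 17.7 and 9.89 CPM, and in the resting cells of the Rflnb-led cluster at 27.8, 12.4, 13.1 and 7.49 CPM, so these ranges overlapped as well. Thinned, the Ccr4-led cluster exceeded the Rflnb-led cluster in 4 of 4 libraries (log2 ratio 1.80, 3.67, 1.46 and 2.61), and so did the Trat1-led cluster (1.89, 1.77, 1.83 and 2.26). The early activated class did not differ from the resting naive class in 1 direction (-0.76, 1.56, -0.35 and 0.05; mean 0.13 ± 1.01), and at full depth the mean turned to -0.37 ± 0.38. The female wild-type-labelled library alone set the sign, and without it the thinned mean was -0.35. The Trat1-led cells held 161 of the 417 Il12rb2 UMIs of the resting naive class, and Egr3-led over Rflnb-led cells the thinned log2 ratio was 0.0058, 2.43, 0.42 and 0.46 (mean 0.83 ± 1.09, and 0.43 ± 0.38 at full depth), so the direction depends on which cells are called resting and activated.

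**Figure D2:**
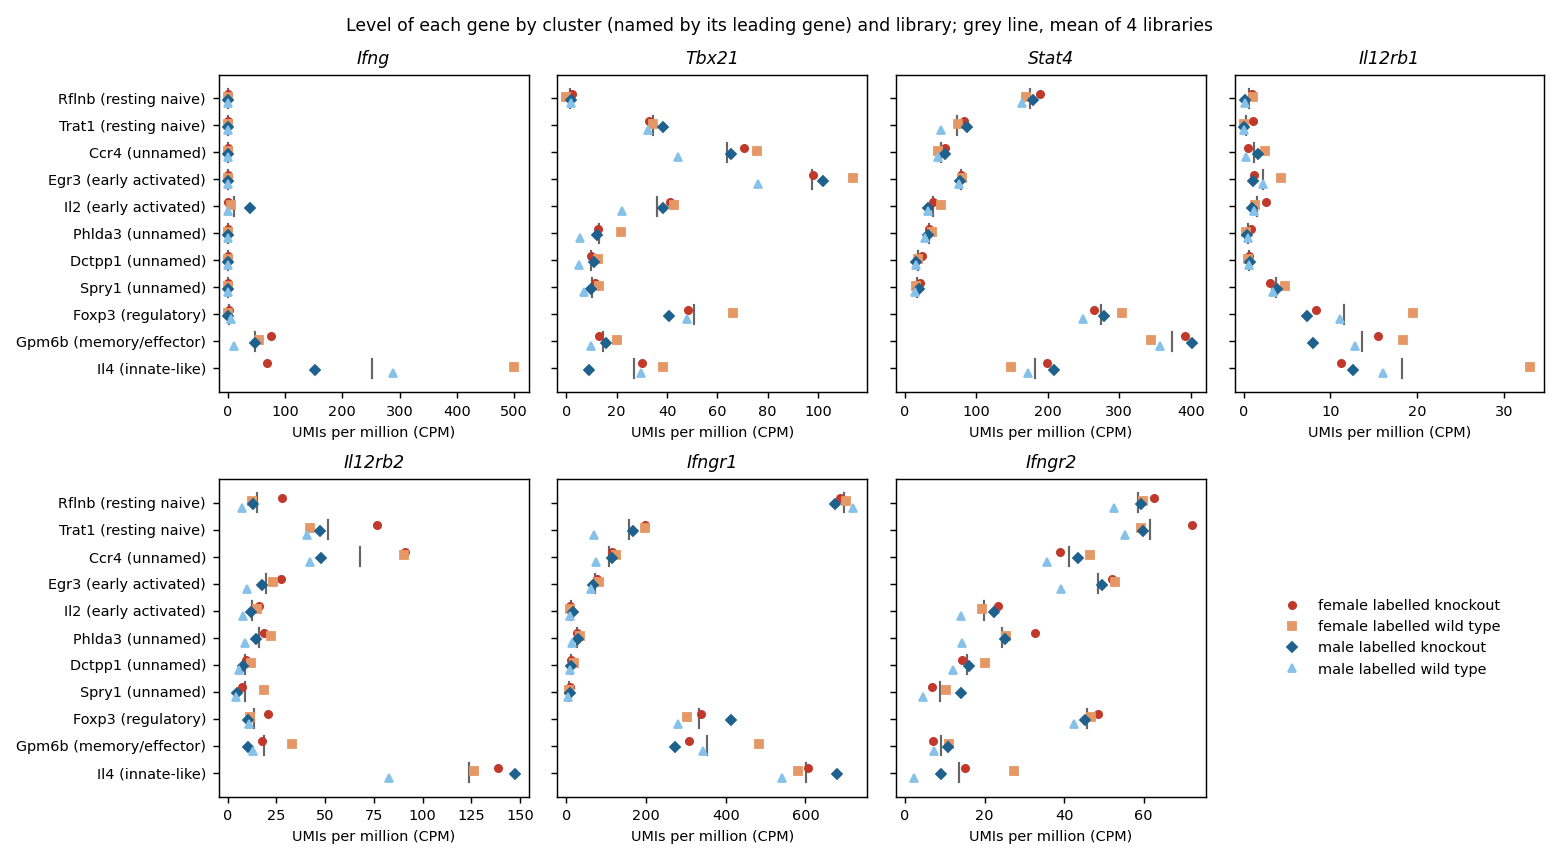
Level in CPM (x axis) of each of the 7 genes in 11 clusters (y axis, by leading gene and class); symbols are libraries and the grey line is their mean. Ifng lies mostly in the innate-like, memory or effector and Il2-led rows, the last through 1 cell of the male knockout-labelled library (38.4 CPM there), Tbx21 is highest in the Egr3-led row (76.3 to 113.8 CPM) and Il12rb2 in the innate-like and Ccr4-led rows.

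Tbx21 and Il12rb2 were counted in activated cells that had no Ifng. Of 4145 early activated cells 1082 had a Tbx21 UMI, 319 an Il12rb2 UMI and 106 both. Of the 1295 with either, 5 had an Ifng UMI: 0 of 363, 2 of 170, 1 of 456 and 2 of 306 by library, so 100%, 98.8%, 99.8% and 99.3% lacked it (mean 99.5% ± 0.52, n = 4). Of the 2850 early activated cells with neither gene 10 had Ifng, so 99.6% lacked it as well. In the Ccr4-led cluster 897 cells had either and 2 of them an Ifng UMI; Il12rb2 was seen in 26.8% of its cells with Tbx21 and in 26.0% of its cells without. In the Egr3-led cluster those shares were 8.88% and 7.92%. Of 328 innate-like cells 166 had either, and 41 of these had Ifng, so 75.3% lacked it (exact 95% binomial interval 68.0% to 81.7%). After thinning, 552 early activated cells had either gene and 0 of them an Ifng UMI. A cell without a UMI may still hold the RNA at this depth.

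The early activated cells with Tbx21 or Il12rb2 held less RNA of memory genes than memory or effector cells did. Summed over 8 such genes (S100a4, S100a6, Crip1, Ahnak, Itgb1, Cxcr3, Cxcr6 and Ccl5) they held 124 ± 19.6 CPM (SD, n = 4), against 129 ± 25.3 CPM in early activated cells with neither gene, 178 ± 31.8 CPM in resting naive cells and 1645 ± 436 CPM in memory or effector cells. Crip1 (62.1 CPM, 4 libraries pooled) and Itgb1 (61.3 CPM) made up most of it, and Itgb1 was higher in them than in resting naive cells (24.6 CPM). Genes of naive cells went different ways, 4 libraries pooled. Satb1, a chromatin organiser, stood at 2615 CPM in them, 1581 CPM in resting naive and 560 CPM in memory or effector cells. Lef1, a transcription factor of naive cells, stood at 80.9, 511 and 108 CPM, and Ccr7, the lymph node homing receptor, at 156, 293 and 121 CPM; the Rflnb-led cells, most of the resting naive class, stood at 178 CPM of Ccr7 and the Trat1-led cells at 989 CPM. Igfbp4 and Dapl1 were also lower in them than in resting naive cells (1.14 against 17.5 CPM and 4.15 against 46.5 CPM). Of these 5 genes only Satb1 was higher in them than in resting naive cells. These genes overlap with the markers that named the classes, and the values are descriptions.

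An activation score was formed per cell from the UMIs of 18 genes of early antigen receptor signalling, such as Nr4a1, Egr1 and Cd69, after thinning. Over 6 bins of this score, in the 17163 cells outside the regulatory, memory and innate-like clusters, Tbx21 ran from 1.36 ± 1.21 CPM at a score of 0 to 1, through 28.6 ± 6.61 at 10 to 19, to 102.1 ± 14.7 at 40 to 127. The highest bin exceeded every lower bin in 4 of 4 libraries. Il12rb2 was 13.5 ± 9.47 CPM in the lowest bin, 27.5 ± 10.1 at 10 to 19 and 17.2 ± 7.60 in the highest, and the bin of 10 to 19 lay above both the lowest and the highest bin in 4 of 4 libraries. Ifng stayed under 3 CPM in every library in the bins up to 19, and its 19.5 CPM at 20 to 39 in the male knockout-labelled library comes mostly from the single cell described above. In the highest bin 3 thinned UMIs were counted, at 7.35 CPM in the female wild-type-labelled library, which has 136 cells there, and at 0 to 1.52 CPM in the others. Median depth of the cells ran from 4544 UMIs in the lowest bin to 8551 at 5 to 9 and 5901 in the highest. The genes of the score also defined the early activated class, so the bins and the clusters are not independent.

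**Figure D3:**
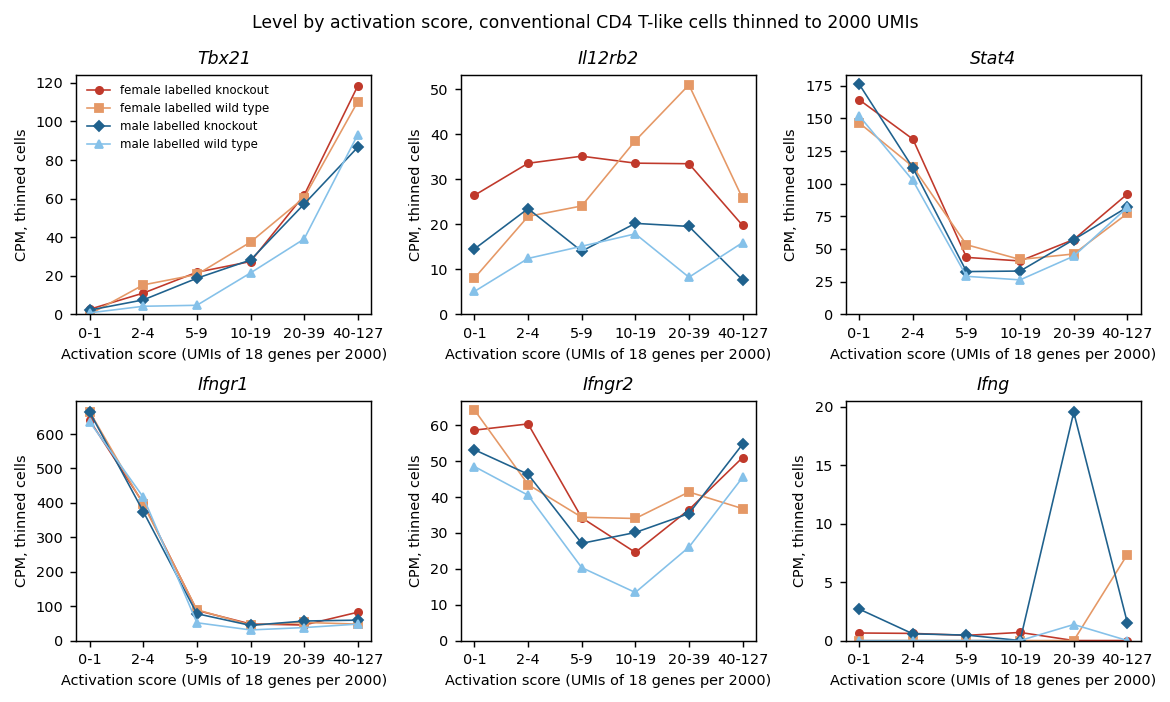
Thinned CPM (y axis) of 6 genes against the activation score (x axis, UMIs of 18 genes per 2000 UMIs), 1 line per library. Tbx21 stands at 86.6 to 118.4 CPM in the last bin, Ifngr1 goes from a mean of 651 CPM to 59.3 CPM, and Ifng is highest in the male knockout-labelled library at 20 to 39 (19.5 CPM).

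Stat4 was lower in activated than in resting cells. In the Rflnb-led cluster it stood at 189, 169.9, 179 and 164 CPM and in the Egr3-led cluster at 79.1, 80.5, 77.1 and 76.3 CPM, with no overlap. It was lowest in the Spry1-led (17.5 ± 3.62 CPM) and Dctpp1-led (18.2 ± 3.77 CPM) clusters, which overlapped, and highest in memory or effector cells (374 ± 27.7 CPM) and regulatory cells (274 ± 22.9 CPM), whose ranges did not overlap either. Early activated over resting naive cells, the thinned log2 ratio was -1.47 ± 0.14, a 2.77-fold lower level, negative in 4 of 4 libraries. Across the activation bins Stat4 went from 160 ± 13.2 CPM to 35.6 ± 7.30 at 10 to 19 and stood at 83.3 ± 6.28 CPM in the highest bin, above the 10 to 19 bin in 4 of 4 libraries.

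Il12rb1, the receptor chain shared by related cytokines, was scarce in every cluster. It had 79, 45, 81 and 80 UMIs in CD4 T-like cells (2.36, 2.88, 1.72 and 1.74 CPM). The innate-like (18.2 ± 10.1 CPM), memory or effector (13.6 ± 4.40 CPM) and regulatory (11.5 ± 5.51 CPM) clusters held most of it per cell and overlapped with each other. In Rflnb-led cells 8 UMIs were counted in 3902 cells and in Egr3-led cells 21 in 1751, at 1.04 to 4.35 CPM. In the Ccr4-led and Trat1-led cells, where Il12rb2 was high, Il12rb1 stood at 1.23 ± 1.01 and 0.27 ± 0.53 CPM.

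Ifngr1 was lower in activated than in resting cells. It stood at 686, 702, 675 and 719 CPM in the Rflnb-led cluster, at 75.9, 81.9, 65.9 and 62.8 CPM in the Egr3-led cluster and at 5.12 to 8.98 CPM in the Spry1-led cluster. The thinned log2 ratio of early activated over resting naive cells was -3.96 ± 0.24, a 15.5-fold lower level, negative in 4 of 4 libraries, and -2.94 at cluster resolution 0.5. Innate-like cells kept 602 ± 58.1 CPM, memory or effector cells 352 ± 92.0 and regulatory cells 334 ± 58.7, and the last pair overlapped. Ifngr2, the signalling chain, was 58.6 ± 4.27 CPM in the Rflnb-led cluster, 48.4 ± 6.25 in the Egr3-led cluster and 8.90 ± 4.21 in the Spry1-led cluster, with a thinned log2 ratio for the classes of -0.69 ± 0.16. That ratio was -0.042 at cluster resolution 0.5, and between the Egr3-led and Rflnb-led clusters it was -0.11 ± 0.10, with 1 of 4 libraries above 0. It was low in memory or effector (8.99 ± 2.19 CPM) and innate-like cells (13.5 ± 10.7 CPM), where Ifngr1 was high.

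The genes with the most similar pattern were sought over 36 sums, 9 clusters in 4 libraries, by Pearson's r of log2(CPM + 1). Sums of one library share depth and free RNA, and the values are descriptions. Tbx21 was most like Irf8 (r = 0.94), Cish (0.92), Tagap, Tmem131l and Relb. Il12rb2 was most like Arap2 (0.85), Trat1 (0.78), Pim2, Gbp5 and Frmd6. Among the genes most like Ifng were Nrp1 (0.83), Cxcr6, Scg2 and Lilr4b, and Il12rb1 was most like Lilr4b (0.90), Pdcd1, Casp4, Rbpj and Cd84. Stat4 was most like Fryl (0.97), Itga4, Myl12b, Cd37 and Mif4gd, Ifngr1 like Fyb (0.98), Tmem140, Ssh2, 9930111J21Rik2 and Khnyn, and Ifngr2 like Gbp2 (0.90), Ly6a, Klf7, Igtp and Ly6c1. Between members r was 0.89 for Stat4 with Ifngr1, 0.53 for Tbx21 with Il12rb2 and 0.01 for Tbx21 with Ifng.

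Target genes of interferon-gamma were abundant in clusters with almost no Ifng. The 22 listed genes summed to 11867 ± 1088 CPM in the Rflnb-led cluster, 9260 ± 738 in the Trat1-led and 10284 ± 1657 in the Egr3-led cluster, against 1015 ± 164 in the Dctpp1-led and 1918 ± 195 CPM in the innate-like cluster. Gbp2, a guanylate-binding protein gene, led the list with 1990 CPM in the Rflnb-led, 2505 in the Trat1-led and 1330 in the Egr3-led cluster, 4 libraries pooled. Of the 22 genes 7 were higher in the Egr3-led than in the Rflnb-led cluster and 15 lower. Irf8, a transcription factor gene, was among those higher, with 37.9 CPM in the Rflnb-led, 484 in the Trat1-led and 1023 in the Egr3-led cluster, and so was the chemokine gene Cxcl10, with 80.0, 191 and 502 CPM. Many of these genes also answer to type I interferon, whose part was not tested.

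By genotype label, none of the 7 genes passed the test in CD4 T-like cells. The edgeR quasi-likelihood test with sex as a term called 92 of 12531 genes (0.734%) at an adjusted p under 0.05, 71 higher and 21 lower under the knockout label. Ifng stood at 4.89, 8.83, 9.99 and 3.50 CPM, so that the label difference had opposite signs in females and males (log2 difference 0.41, SE 0.38, adjusted p = 0.877). It was called without the innate-like cluster (1.83, adjusted p = 1.50e-03) and without the NK or gamma-delta-like cells (0.97, adjusted p = 1.01e-03), and in fits without 1 library, which have no sex term, its sign turned without the male knockout-labelled library (-0.31) or the male wild-type-labelled library (-0.28). Both of these cell sets leave out the cell with 68 of the 138 UMIs of the female wild-type-labelled library. Both keep the cell with 231 of the 469 UMIs of the male knockout-labelled library. The 15 NK or gamma-delta genes summed to 33.3, 31.1, 15.7 and 19.2 CPM, with 12 of 15 seen in every library and Ncr1 at 0 in both male libraries. Their part in the result was not tested. Without the 5 cells of each library with the most Ifng UMIs, which include 1 cell with 68 of the 138 UMIs of the female wild-type-labelled library, Ifng stood at 2.21, 1.41, 2.71 and 1.22 CPM, higher under the knockout label in both sexes, and the difference was 0.89 (adjusted p = 0.133). That choice of cells uses Ifng itself and took unequal shares of it from the libraries, 54.9% to 84.1%. The innate-like cluster held 140 of 6125, 25 of 1794, 123 of 6509 and 40 of 4538 CD4 T-like cells. This share was larger under the knockout label in both sexes, and its part in the Ifng levels was not tested.

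Tbx21 stood at 29.7, 35.7, 28.2 and 18.2 CPM (log2 difference 0.13, SE 0.16, adjusted p = 0.911, edgeR). The male wild-type-labelled library was lowest and the female wild-type-labelled library highest. Without the female wild-type-labelled library it was called (0.57, adjusted p = 0.0229), and without the male wild-type-labelled library its sign turned (-0.35, adjusted p = 0.209). Il12rb2 stood at 30.2, 28.4, 18.3 and 12.2 CPM (0.27, SE 0.11, adjusted p = 0.572), Stat4 at 86.1, 74.3, 83.7 and 65.6 CPM (0.21, SE 0.08, adjusted p = 0.5004) and Il12rb1 at the levels given above (-0.21, SE 0.20, adjusted p = 0.880). Ifngr1 at 159, 156, 164 and 139 CPM and Ifngr2 at 33.2, 32.5, 32.1 and 23.4 CPM were not called (0.07 and 0.19, adjusted p = 0.915 and 0.725). Il12rb2 turned negative without the female knockout-labelled library (-0.17) or the male wild-type-labelled library (-0.29). With only cells of at least 4000 UMIs Ifngr1 turned to -0.415 (adjusted p = 0.0319).

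**Figure D4:**
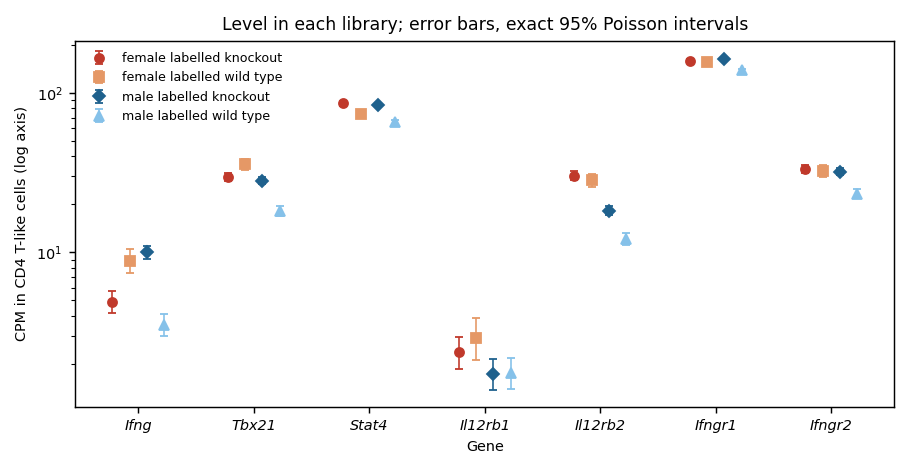
CPM in CD4 T-like cells on a log axis (y) for each gene (x), 1 symbol per library; error bars are exact 95% Poisson intervals. Il12rb2 is higher in both female (28.4 and 30.2 CPM) than in both male libraries (12.2 and 18.3 CPM), and Ifng and Tbx21 differ by label in opposite directions in females and males.

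Within the early activated class 32 of 9697 genes (0.33%) differed by label, and none was a member. Ifng there was set by 1 cell, at 0.152, 3.39, 23.1 and 0.923 CPM with library scaling (log2 difference 3.13, adjusted p = 0.214, edgeR). It was called without the female knockout-labelled library (3.79, adjusted p = 0.0254), at cluster resolution 2 (4.10, adjusted p = 2.20e-24) and without a filter on low counts (3.16, adjusted p = 5.91e-24), and its sign turned without the male knockout-labelled library (-3.36), which holds that cell. Tbx21 differed by 0.20 (SE 0.14, adjusted p = 0.894) and was called without the female wild-type-labelled library (0.54, adjusted p = 6.69e-03). Within the resting naive class 9 of 10085 genes (0.0892%) differed, again no member; Ifng and Il12rb1 had too few UMIs to be tested there. Il12rb2 stood at 36.2, 17.6, 17.3 and 11.6 CPM with library scaling (log2 difference 0.79, SE 0.18, adjusted p = 0.229, higher by label in 2 of 2 sexes), and was called without the female wild-type-labelled library (1.17, adjusted p = 3.79e-06), without the male knockout-labelled library (1.40, adjusted p = 6.47e-06), at cluster resolution 0.5 (0.89, adjusted p = 0.0197) and without a filter on low counts (0.79, adjusted p = 3.51e-03).

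By sex, Il12rb2 was the only member called with all libraries, cells and terms as above. The sex term of the CD4 T-like fit called 52 of 12531 genes (0.415%), 9 higher and 43 lower in males. With library scaling Il12rb2 averaged 29.1 ± 0.513 CPM (SD, n = 2) in the female and 15.3 ± 3.65 CPM (n = 2) in the male libraries (log2 male over female -0.93, SE 0.11, adjusted p = 4.56e-03 by edgeR), and both male libraries lay below both female libraries. Free RNA went the same way, with 35.1 and 26.3 CPM in females and 17.2 and 11.6 CPM in males; its part was not tested. The difference was also called without the NK or gamma-delta-like cells, whose summed markers were lower in both male libraries (-0.93, adjusted p = 2.51e-08), without the innate-like cluster (-0.98) and with cells and depth made equal (-0.82, adjusted p = 3.50e-03). It was not called without a term for genotype label (-0.93, adjusted p = 0.199, edgeR). Fits by sex without 1 library also lack that term. The difference was not called in those without the female knockout-labelled library (-0.91) or without the female wild-type-labelled library (-0.95). Sex and any other difference between the female and male libraries cannot be told apart.

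The lower Il12rb2 of the male libraries was seen within clusters. Of the 9 clusters with at least 50 cells in every library, both female libraries were above both male libraries in 7, among them the Ccr4-led (90.7 and 90.6 against 47.8 and 42.0 CPM), Egr3-led (27.6 and 23.2 against 17.7 and 9.89 CPM) and Phlda3-led cluster (18.9 and 22.3 against 14.3 and 8.90 CPM). The Rflnb-led and Trat1-led clusters overlapped, and so did the innate-like cluster, with 25 cells in its smallest library. The same separation was seen for Tbx21 in 4 of 9 clusters, for Stat4 in 4, for Il12rb1 in 3, for Ifngr2 in 3, for Ifngr1 in 2 and for Ifng in 2, of which the Ccr4-led cluster held 4 Ifng UMIs. Ifng in the Spry1-led cluster, with 5 UMIs, was higher in both male libraries. How often other genes separate in this way was not counted. Clusters of one library are not independent of each other, so these counts of clusters are descriptions. In the sex term of the class fits Il12rb2 differed by -0.91 in resting naive cells (SE 0.17, adjusted p = 0.0487, edgeR) and by -0.73 in early activated cells (SE 0.17, adjusted p = 0.110). Trat1-led cells made up 13.7% and 12.8% of the resting naive cells in the female and 8.57% and 6.94% in the male libraries, and without them the difference there was -0.95 (SE 0.21) and was not called (adjusted p = 0.169). Tbx21 by sex stood at -0.47 (SE 0.16, adjusted p = 0.439, edgeR) in CD4 T-like cells and was called without the innate-like cluster (adjusted p = 0.0455), without the NK or gamma-delta-like cells (0.0142), with at least 4000 UMIs per cell (0.0212), without a filter on low counts (5.33e-04) and without the male knockout-labelled library (1.43e-07). Ifng by sex was 0.02 and was called without the NK or gamma-delta-like cells (0.70, adjusted p = 0.0386, edgeR). That set leaves out the female wild-type-labelled cell with 68 Ifng UMIs and keeps the male knockout-labelled cell with 231. Without the male knockout-labelled library, which holds the cell with 231, Ifng was called the other way (-0.85). Ifngr2 by sex was -0.23 (adjusted p = 0.760, edgeR) and was called without the male knockout-labelled library (-0.42). These fits without the male knockout-labelled library have no term for genotype label.

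**Figure D5:**
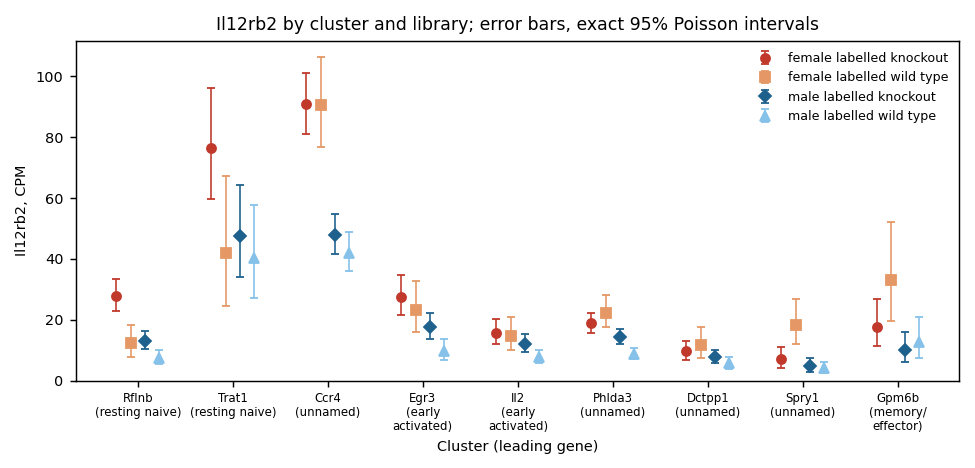
Il12rb2 in CPM (y axis) in the 9 clusters with at least 50 cells in every library (x axis, by leading gene), 1 symbol per library; error bars are exact 95% Poisson intervals. In the Ccr4-led cluster the female libraries stand at 90.6 and 90.7 CPM and the male libraries at 42.0 and 47.8 CPM.

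Other genes of the pathway were taken from 7 lists of 74 genes, of which 70 were tested by genotype label in CD4 T-like cells. Among 9 tested type 1 factors and cofactors 0 were higher and 1 lower: Zeb2, a zinc-finger factor of effector T cells, at 26.5, 33.9, 17.8 and 25.5 CPM (log2 difference -0.51, adjusted p = 0.0284, edgeR). Among 6 opposing lineage factors 2 were higher, Foxp3, the factor of regulatory cells (1.12, adjusted p = 4.66e-03), and Gata3, the factor of type 2 cells (0.70, adjusted p = 0.0267). No receptor of the 9 listed and no kinase or STAT of the 5 was called (edgeR). The regulatory cluster held 300 of 6125, 40 of 1794, 315 of 6509 and 137 of 4538 CD4 T-like cells. Without it Foxp3 differed by 0.79 (adjusted p = 8.51e-03, edgeR). Fewer cells of a type and less RNA per cell cannot be told apart in such sums. Of 6 feedback inhibitors Socs2 was higher (1.06, adjusted p = 7.46e-03). Of 21 interferon-gamma targets Cxcl10 was lower (-0.44, adjusted p = 0.0284), and the median of the list was 0.08 against 0.0023 over all genes tested.

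Type 1 effector genes moved both ways. In CD4 T-like cells 2 of 18 were higher by label, Ccl5 (0.43, adjusted p = 0.0498) and Gzmb (1.09, adjusted p = 0.0195), and 2 lower, the chemokine gene Ccl4 (-1.06, adjusted p = 7.59e-03, edgeR) and Tnf (-0.49, adjusted p = 0.0195). Ccl5 stood at 487 CPM in memory or effector, 479 in innate-like and 1.53 in resting naive cells, 4 libraries pooled. By library the memory or effector cluster held 228, 68, 253 and 134 cells and the innate-like cluster 140, 25, 123 and 40. The part of these numbers of cells was not tested. In early activated cells 6 of 8 tested were lower and 0 higher: Ccl4 at 112.5, 254, 81.6 and 214 CPM (-1.35, SE 0.087, adjusted p = 4.47e-06), Ccl3, Csf2, Lta, Tnf and Il2 (213, 306, 217 and 299 CPM, -0.56, SE 0.076, adjusted p = 5.84e-03). The list's median there was -0.61 against 0.0020 over all genes. Leaving out 1 library at a time, Foxp3 in CD4 T-like cells and Ccl4 in early activated cells were called in 4 of 4 fits (edgeR, adjusted p up to 0.0196 and 0.0102), and Socs2 in 3 of 4. In CD4 T-like cells Ccl4 and Tnf were called in 2 of 4, Zeb2, Gata3, Gzmb and Cxcl10 in 1 of 4 and Ccl5 in 0 of 4. With clusters at resolution 0.5 none of the 4 of these 6 genes that were tested was called in early activated cells (Ccl4 -1.26, adjusted p = 0.807), and Il2 turned to 0.28; without the sex term Ccl4 alone of the 6 was called. In early activated cells Il2 was called in 2 of 4 and Ccl3, Csf2, Lta and Tnf in 1 of 4. Those fits have no sex term.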

How the data were processed

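Gene by barcode count tables of 4 single-cell libraries were analysed. The deposited values are raw UMI counts, made by the authors with Cell Ranger 6.0.2 on mm10 per the submitters' processing notes, while the matrix header per the file headers names version 4; whether counting used strand is not given in the sources used here. Filters on cells are given in the text. Cells were clustered with scanpy 1.11.5 and leidenalg 0.10.2 (2000 variable genes, 30 components, 15 neighbours, resolution 1) without the 7 genes and 762 genes in all, and named from marker lists. CPM are UMIs per 1000000 UMIs of the cells summed. Thinning draws 2000 UMIs per cell. UMIs were summed per library and tested with edgeR 4.0.16 in R 4.3.3 (TMM scaling, filterByExpr, quasi-likelihood test, sex and genotype label as terms, Benjamini-Hochberg over all genes tested, threshold 0.05). CPM said to have library scaling use TMM. On counts simulated for the genotype comparison in CD4 T-like cells (12369 and 12366 genes) the test recovered 55.5% of 200 genes changed by 0.5 and 82.5% of 200 changed by 1 on the log2 scale, with 8.26% and 8.84% false calls.

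Scrublet marked 0.0486% to 2.05% of cells by its own cutoff, which did not work in every library, so doublets were kept, and removing the highest scores (0.8% per 1000 cells) was an alternative. Other alternatives were DESeq2 1.42.0, no filter on low counts, no sex or genotype term, other cell sets, resolutions 0.5 and 2, and leaving out each library; those without NK or gamma-delta-like, regulatory or Trat1-led cells, the cell sets of the sex fit, Il12rb2 by sex in resting naive cells without Trat1-led cells, and Ifng within each sex without the 5 highest cells, were added after seeing the data. Intervals are exact at 95%. Named genes are the 7 members, Irf5, genes of the pathway lists that were called or most abundant, the 5 genes most like each member and the 10 genes highest in cells with Ifng; Cxcl10 and Irf8 fall under these. The members and lists were chosen with earlier results of these data known. Promoters were matched by symbol for 6 of 7 genes. Some genes that these rules name are not reported here.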

Additional observations from a re-analysis of the deposited data

Results flagged for a closer look

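Over all CD4 T-like cells Ifng differed by genotype label in opposite directions in the sexes. The log2 ratio of knockout over wild type as labelled was -0.8529 in females (exact 95% Poisson interval -1.19 to -0.52) and 1.5112 in males (1.25 to 1.78). A single cell held 49.3% of the Ifng UMIs in the female wild-type-labelled library and 49.3% in the male knockout-labelled library. Without the 5 cells of each library with the most Ifng UMIs, the ratio was positive in both sexes, at 0.65 in females (-0.055 to 1.41) and 1.15 in males (0.69 to 1.63). That choice of cells uses Ifng itself and took 84.1% of the Ifng UMIs of the female wild-type-labelled library but 54.9% of those of the female knockout-labelled library, so it is a description. The share of cells with an Ifng UMI was higher in the female wild-type-labelled than in the female knockout-labelled library (1.28% against 0.849%, and 0.557% against 0.441% after thinning). Tbx21 had log2 ratios of -0.2635 in females (-0.41 to -0.11) and 0.6281 in males (0.50 to 0.75). With 1 library per sex and label the difference was not tested, and the intervals cover counting error only.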

How the results depend on the processing

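Counts of genes called depended on the settings. By genotype label in CD4 T-like cells the count was 92, with 155 over all cells, 203 without innate-like, 247 without NK or gamma-delta-like and 247 without regulatory cells, 160 with doublets removed, 194 at 4000 UMIs, 13 without the sex term, 276 without a filter, 30 with DESeq2 and 37 to 221 leaving out 1 library. In early activated cells it was 32, with 2 and 133 at resolutions 0.5 and 2, 5 without the sex term, 136 without a filter and 5 to 264 leaving out 1 library. In resting naive cells it was 9, with 96 at resolution 0.5, 4 without the sex term, 94 without a filter and 8 to 410 leaving out 1 library. By sex it was 52, with 9 without the genotype term, 261 without a filter, 26 with DESeq2, 200 without innate-like and 220 without NK or gamma-delta-like cells, 155 with doublets removed, 150 at 4000 UMIs, 111 at equal depth and 6 to 358 leaving out 1 library. The cause was not tested.

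The log2 ratio of early activated over resting naive cells was 2.94 for Tbx21 and -0.30 for Il12rb2 at resolution 2; -1.04 for Stat4, -2.94 for Ifngr1 and -0.042 for Ifngr2 at resolution 0.5; and -0.37 for Il12rb2 and -0.96 for Ifngr2 at full depth. Leaving out 1 library gave -0.35 to 0.42 for Il12rb2.

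By genotype label the sign turned at 4000 UMIs for Stat4 (-0.0176) and Ifngr1 (-0.415), at equal depth for Tbx21 (-0.0134), at resolution 0.5 in early activated cells for Ifngr1 (-0.0373) and Il2 (0.28), and at resolution 2 for Stat4 in early activated (0.0503) and Tbx21 in resting naive cells (-0.0571). By sex it turned for Ifng with DESeq2 (-0.12) and at 4000 UMIs (-0.13), and at 4000 UMIs for Stat4 (0.064) and Ifngr1 (0.27). Leaving out 1 library, the genotype difference in CD4 T-like cells ran from -0.31 to 1.02 for Ifng, -0.35 to 0.57 for Tbx21, -0.57 to 0.12 for Il12rb1, -0.29 to 0.89 for Il12rb2 and -0.0439 to 0.39 for Ifngr2. In early activated cells it ran from -3.36 to 3.79 for Ifng, -0.20 to 0.54 for Tbx21, -0.97 to 0.0344 for Il12rb1, -0.14 to 0.91 for Il12rb2, -0.31 to 0.0579 for Stat4, -0.11 to 0.32 for Ifngr1 and -0.83 to 0.0172 for Cxcl10. By sex it ran from -0.85 to 0.57 for Ifng, -0.22 to 0.0362 for Stat4 and -0.12 to 0.0312 for Ifngr1.

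Of 284 values of the members under alternatives 235 kept direction and side of the threshold, 28 changed sign, 18 became called and 3 were no longer called. Of 255 values of Irf5 and the called pathway genes 160 kept both, 93 were no longer called and 2 changed sign. Without the 5 cells of each library with the most Ifng UMIs, added after seeing the data, the log2 ratio of Ifng by label in females turned to 0.6482. Each replicate number is 1 sex, so the sex term is also a replicate block; without it 13, 5 and 4 genes were called by genotype label in CD4 T-like, early activated and resting naive cells. With 1 library per sex and label, a lone library is assumed to vary like the others. Ifng and Il12rb1 had only a few UMIs in naive cells, where low depth and absence of the RNA cannot be told apart.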
